A study of Drosophila melanogaster with 12 samples.

Results

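The 34 genes described here encode pore-forming and auxiliary subunits of ion channels. Most belong to the sodium, potassium and calcium channels opened by voltage, or to the leak channels that hold the resting potential. Potassium channels opened by internal ions, inward rectifiers and the cation channel Ih are also among them. The genes were chosen by name and are given by the ion they pass. All 34 had a row among the 13515 genes of the table, and all 34 were among the 10845 genes tested. RNA came from whole heads of Drosophila melanogaster at day 10 of adulthood. Tau flies were Elav-Gal4/+;UAS-tauR406W/+, in which a driver active in all neurons makes human tau with a mutation of inherited frontotemporal dementia, and control flies were Elav-Gal4/+, with the same driver and no tau transgene. Each group had 6 libraries, lettered A to F, and each library was made from 18 pooled heads of males and females.

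An action potential starts when sodium channels open and let sodium in. Potassium channels then open and end it, and which of them a neuron makes sets how fast and how often it fires. Calcium channels turn the spike into transmitter release at the terminal, while leak channels, open at rest, decide how close a neuron sits to its threshold. Several of these genes were first found in flies through mutants that shake under ether, lose movement at high temperature or sleep less.

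Values are normalised counts, that is, gene counts that the authors divided by normalisation factors. The estimated depth was 25.6 to 41.3 M read pairs in the tau libraries and 20.2 to 33.3 M in the control libraries. Control E, Control F and Tau B listed 433, 484 and 195 genes at 0, against at least 1492 in each of the other libraries, and results are therefore also given without these 3 libraries. None of the 34 genes was listed at 0 in any library. The 14 pan-neuronal genes, such as elav and the synaptic vesicle gene Syt1, were read in every library, with a summed level of 203234 to 262392 in tau heads and 185248 to 301804 in control heads. None of the 14 was called (0 at an unadjusted p under 0.05 in limma) and their median log2 fold change was 0.00 on the log2(value + 1) scale, which is used throughout.

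The question was which channel genes differ in RNA level between tau and control heads. Since controls carry no UAS transgene, effects of tau and of the transgene insertion cannot be told apart. A single gene, Ork1, a potassium leak channel, was lower in tau heads, at 0.579 times its control level. The other 33 genes were not called, with log2 fold changes between −0.19 and 0.29. Of all genes tested, 5.23% were called at an adjusted p under 0.05 by limma (2.1% higher and 3.13% lower in tau), and 1 of 34 channel genes is 2.94%, so that the count lies near this background. The median log2 fold change was 0.008 for the 34 genes and 0.008 for all genes tested. Its median size, regardless of sign, was 0.084 for the channel genes and 0.18 for all genes. Within 1.3-fold of control stayed 33 of the 34, where 74.5% of all genes did. No channel gene had a value below 45.8, while the genes tested go down to a mean of 10. This comparison was not matched for level, so the smaller size cannot be read as a trait of channel genes.

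A p that misses the threshold does not show equal levels, so the intervals of the differences are given. For 32 of the 34 genes, the 95% interval of the fold change lay inside 1.5-fold in either direction. The exceptions were Ork1 and sand, and sand is the gene with the fewest reads. For 21 genes the interval lay inside 1.3-fold. These intervals are those of single genes and are not widened for the number of genes.

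**Figure D1:**
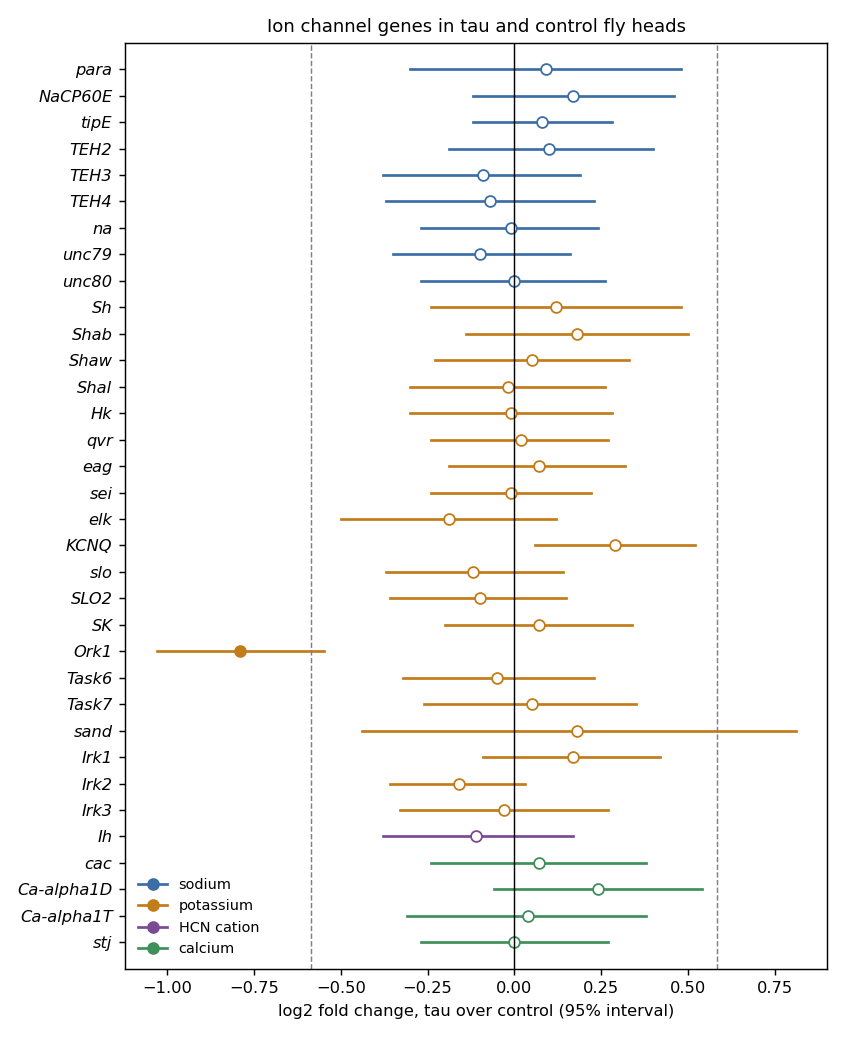
Log2 fold change of each of the 34 genes, tau over control, with its 95% interval from limma, coloured by ion. The filled point, Ork1 at −0.79, is the called gene, open points were not called, and dashed lines mark 1.5-fold, which the intervals of Ork1 and sand alone reach.

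Ork1 (FBgn0017561; X, 10878054 to 10891250, minus strand, dm6) encodes an open rectifier channel of the K2P family, whose subunits carry a pair of pore domains and pass potassium at rest. In tau heads its normalised counts were 676, 650, 609, 532, 604 and 740 in libraries A to F. In control heads they were 1187, 865, 1255, 1079, 986 and 1242. The highest tau library, Tau F, lay below the lowest control library, Control B, so the groups did not overlap, which 3.37% of all tested genes did not either (1.8% in this direction). Means were 635 ± 71.2 in tau heads and 1102 ± 155 in control heads (SD, n = 6 each). The log2 fold change was −0.79 ± 0.11 (SE; limma, adjusted p = 0.000822), and the 95% interval of the ratio of tau to control ran from 0.489 to 0.684. No exon base of Ork1 is shared with another gene of the annotation. In bulk heads, fewer cells of a type and less RNA per cell cannot be told apart, here and for every gene below.

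The fall of Ork1 kept its call in each of 24 other fits, with log2 fold changes of −0.86 to −0.66 and adjusted p of 0.000197 to 0.0412 by limma. Without the 3 libraries named above it was −0.79 (adjusted p = 0.0147 by limma). With the yolk protein genes, a measure of female fat body in the pools, as a covariate it was −0.66 (adjusted p = 0.0235 by limma). The covariate itself differs between the groups, so that fit does not fully separate it from genotype. The adjusted p nearest to the threshold came from centring each library on the pan-neuronal genes.

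Markers of other cell types were read in the same libraries, and of these the haemocyte markers differed most often between the groups. For the counts below, 3.13% of all genes tested were called lower in tau and 2.1% higher. Of 10 genes listed as markers of haemocytes, the fly blood cells, 8 fell, and the median log2 fold change of the list was −0.72. The 8 included vkg, Col4a1, srp and Pxn, and whether the list is specific to blood cells was not tested. The summed level of the 10 genes was 29848 to 39825 in tau heads and 47229 to 69194 in control heads, and none was at 0 in any library. The phagocytic receptor eater, which shared the smallest adjusted p of these markers with Sr-CI, averaged 296 ± 72.2 in tau heads and 787 ± 189 in control heads (SD, n = 6 each). Of 8 fat body markers tested, 1 fell (tobi, a glucosidase), with a median of −0.27. Of 11 glial markers 1 fell (the glutamate transporter Eaat1) with a median of −0.04, of 16 photoreceptor markers 3 fell with a median of −0.15, and of 15 muscle markers tested 1 rose with a median of 0.04. Summed glial markers were 63300 to 72997 in tau heads and 68371 to 79402 in control heads. From Control A to Control F, the log2 deviation of Ork1 from its mean over the 12 libraries was 0.514, 0.058, 0.594, 0.377, 0.247 and 0.579. For the haemocyte markers it was 0.47, 0.18, 0.81, 0.41, 0.34 and 0.17, and for the fat body markers 0.66, 0.52, 0.68, −0.58, −0.01 and 0.42. Control F was thus high for Ork1 and lowest for the haemocyte markers. In neither group did Ork1 and the haemocyte markers share 1 order over all libraries. From Tau A to Tau F, Ork1 deviated by −0.297, −0.354, −0.448, −0.643, −0.46 and −0.167. The haemocyte markers deviated by −0.56, −0.54, −0.17, −0.18, −0.53 and −0.4 in the same libraries, and the fat body markers by −0.5, −0.01, −0.9, −0.3, 0.09 and −0.06. The part of these cell types in the level of Ork1 was not tested.

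The other 3 K2P genes of the list were not called. Task6 averaged 1457 ± 304 in tau heads and 1487 ± 187 in control heads (SD, n = 6 each), a log2 fold change of −0.05 with a 95% interval of −0.32 to 0.23. Task7 averaged 277 ± 38.6 in tau heads and 268 ± 39.0 in control heads, with an interval of −0.26 to 0.35. sand encodes sandman, which silences sleep-promoting neurons while the fly is awake. Its normalised counts ran from 53.6 to 122 in tau heads and from 45.8 to 106 in control heads, with medians of 94.7 and 72.7. An estimated 31 to 127 read pairs lay behind each value of sand, and its interval, −0.44 to 0.81, was the widest of the 34. Of 7 further K2P genes that are outside the 34, none was called (1 at an unadjusted p under 0.05 in limma). That gene was CG1688, at 976 to 1226 in tau heads and 1174 to 1394 in control heads (log2 fold change −0.21 ± 0.08 SE; limma, adjusted p = 0.172). The 7 genes had 3 log2 fold changes above 0 and 4 below it. CG43155, at means of 15.9 in tau heads and 25.6 in control heads, had −0.79 with an interval of −2.54 to 0.95. CG10864 had −0.43 with an interval of −1.11 to 0.26. Intervals this wide do not tell a change like that of Ork1 from none.

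**Figure D2:**
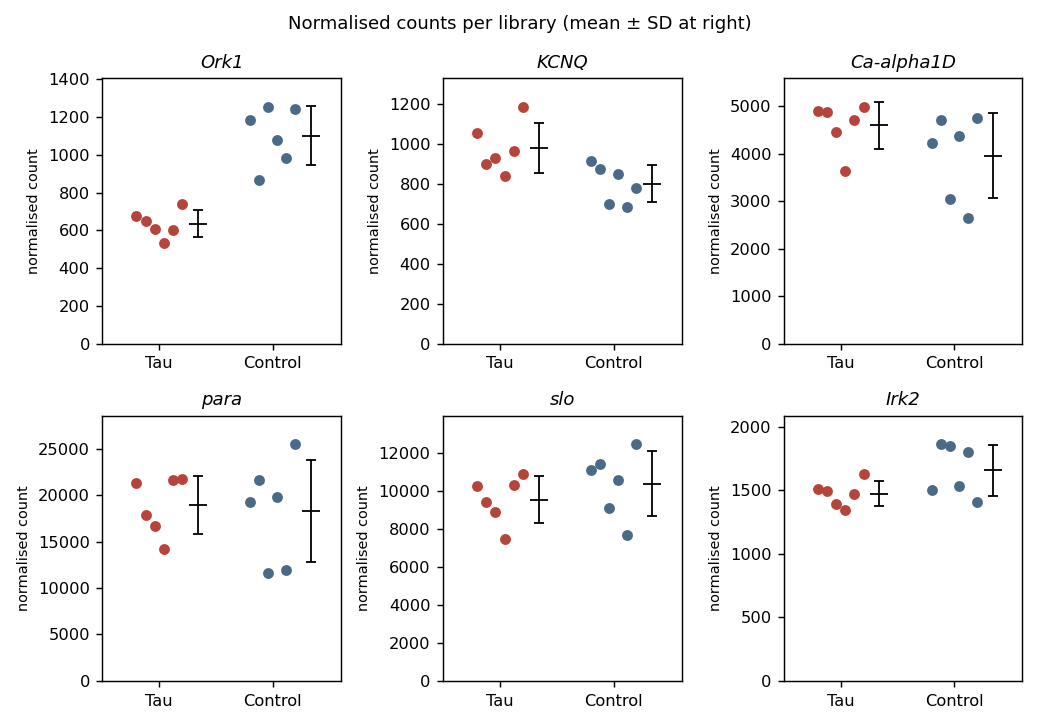
Normalised counts of 6 channel genes in each library, tau left of control, libraries A to F from left to right within a group, with the mean ± SD beside them. The groups are apart for Ork1 (532 to 740 in tau and 865 to 1255 in control) and overlap for KCNQ, Ca-alpha1D, para, slo and Irk2.

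Among the voltage-gated potassium channels, KCNQ (FBgn0033494; 2R, 10145897 to 10192394, minus strand), the fly relative of the slow M-current channels, came nearest to a call. Its lowest, median and highest normalised counts were 841, 945 and 1185 in tau heads and 686, 814 and 915 in control heads. The groups overlapped, since Tau B and Tau D lay below Control A. The log2 fold change was 0.29 ± 0.11 (SE; limma, adjusted p = 0.152). With library totals made equal, KCNQ became the second called gene of the 34 (0.39, adjusted p = 0.0388 by limma), where 7.25% of all genes were called and 4.84% were called higher. That scaling moved the median of all tested genes to 0.112, and KCNQ stood 0.28 above it. An antisense RNA and CG18011 lie across KCNQ on the other strand and cover 20.594% and 6.839% of its exon bases. The kit is described as stranded, and the strand setting of the counting is not given in the sources used here.

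The Shaker family holds the classic fast and delayed potassium channels. Shaker itself, Sh, carries the fast inactivating current and had 17953, 23071 and 26870 normalised counts in tau heads (lowest, median, highest) and 13793, 22632 and 29329 in control heads. Tau values lay within the control range. Shab, the main delayed rectifier, had 5717, 7989 and 8666 in tau heads and 4803, 7081 and 9053 in control heads, a log2 fold change of 0.18 ± 0.15 (SE; limma, adjusted p = 0.599). Shaw and Shal, which encode a slowly gating and a fast inactivating channel, had log2 fold changes of 0.05 and −0.02. Hk, the cytoplasmic beta subunit of Shaker, and qvr, the membrane-anchored protein Sleepless that raises Shaker current, had −0.01 and 0.02.

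Of the EAG family, eag and sei, the seizure gene and relative of the human heart channel hERG, had log2 fold changes of 0.07 and −0.01. elk was low, with 322, 492 and 618 normalised counts in tau heads and 446, 545 and 673 in control heads. Its lowest library, Tau D, lay below all controls, and the other 5 tau libraries overlapped with them (log2 fold change −0.19 ± 0.15 SE; limma, adjusted p = 0.57). Of the channels opened by internal ions, slo, the large-conductance channel that calcium and voltage open together, had 7480, 9812 and 10859 in tau heads and 7686, 10814 and 12450 in control heads. SLO2, whose mammalian relatives open with internal sodium, had 2581, 3240 and 3591 in tau heads and 2732, 3537 and 4055 in control heads. SK, the small-conductance channel, had a log2 fold change of 0.07, beside −0.12 for slo and −0.10 for SLO2, and none of the 3 was called (0 at an unadjusted p under 0.05 in limma).

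Inward rectifiers pass potassium into the cell more easily than out of it and are known in flies for potassium transport in the renal tubules. Irk2 had 1342, 1483 and 1631 normalised counts in tau heads and 1404, 1669 and 1862 in control heads (log2 fold change −0.16 ± 0.09 SE; limma, adjusted p = 0.378). Irk1 had 534, 747 and 851 in tau heads and 571, 654 and 736 in control heads, with a log2 fold change of 0.17, and Irk3 had −0.03. A share of 61.037% of the exon bases of Irk1 also belong to CG46310 on the same strand, so the reads of this gene are uncertain. Ih, the channel opened by hyperpolarization that paces rhythmic firing, had 9816, 12341 and 14083 in tau heads and 9853, 14233 and 15918 in control heads (log2 fold change −0.11 ± 0.13 SE; limma, adjusted p = 0.75).

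Of the 9 sodium genes none was called (0 at an unadjusted p under 0.05 in limma), with log2 fold changes from −0.10 to 0.17. para (FBgn0285944; X, 16455027 to 16533096, minus strand) encodes the pore of the sodium channel that fires the action potential. It had 14221, 19593 and 21724 normalised counts in tau heads and 11628, 19575 and 25485 in control heads. The medians differed by less than the spread in either group (log2 fold change 0.09, 95% interval −0.30 to 0.48). NaCP60E, a related cation channel that also passes calcium, had 9171, 11693 and 12687 in tau heads and 7380, 10546 and 13472 in control heads (log2 fold change 0.17 ± 0.14 SE; limma, adjusted p = 0.594).

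The auxiliary subunit genes of para in the list lie side by side: tipE, TEH2, TEH3 and TEH4 fall within 18.9 kb (3L, 4174859 to 4193788). tipE had 1835, 1935 and 2139 normalised counts in tau heads and 1452, 1850 and 2210 in control heads, and TEH2, TEH3 and TEH4 had log2 fold changes of 0.10, −0.09 and −0.07. TEH3 lies inside the span of TEH2 on the same strand and shares 229 exon bases with it, so reads of that stretch are uncertain between them. tipE shares 777 exon bases, 19.025% of its own, with CG18675 on the same strand, and its value is uncertain to that extent. The sodium leak channel is built on the pore subunit na, named for the narrow abdomen mutant, with unc79 and unc80 as its large partners. Their log2 fold changes were −0.01, −0.10 and 0.00, with 95% intervals of −0.27 to 0.24, −0.35 to 0.16 and −0.27 to 0.26.

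The 4 calcium genes had log2 fold changes from 0.00 to 0.24 and none was called (0 at an unadjusted p under 0.05 in limma). Ca-alpha1D, the high-voltage channel of muscle and neuronal cell bodies, had 3638, 4791 and 4983 normalised counts in tau heads and 2637, 4301 and 4755 in control heads. Tau A, Tau B and Tau F lay above every control, and Control C and Control E below every tau library (log2 fold change 0.24 ± 0.14 SE; limma, adjusted p = 0.41). Ca-alpha1T, the low-voltage channel, had 7409, 11170 and 12590 in tau heads and 7196, 11214 and 13428 in control heads. cac, the presynaptic channel that triggers transmitter release, had a log2 fold change of 0.07 with an interval of −0.24 to 0.38. stj, the alpha2delta subunit that brings cac to the terminal, had 0.00 with an interval of −0.27 to 0.27.

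Levels can be compared between genes only per length, and here they are normalised counts per kb of annotated exon, averaged over the 12 libraries. They spanned 71.6-fold. qvr stood highest at 2994 per kb, followed by TEH2 at 1658, para at 1141, Ih at 993, slo at 980 and Sh at 978. The ranges over the libraries overlapped between para and TEH2, and among para, Ih, slo and Sh. Within every single library, TEH2 stood above para and Sh below it. Ih and slo lay above para in some libraries and below it in others, and Ih, slo and Sh changed places among themselves. The order of Ih and slo against para and against Sh therefore does not hold. Of the calcium pore subunits, Ca-alpha1T had 807 per kb, cac 647 and Ca-alpha1D 408. The genes of the leak channels ran from unc79 at 494 per kb and unc80 at 489 through Task6 at 298, na at 283, Ork1 at 194 and Task7 at 158 to sand, and several gated channels lay in the same range, such as Shal at 417, KCNQ at 230 and elk at 96.5. For Ork1 this was 142 per kb in tau heads and 246 in control heads. elk and, at 41.8 per kb, sand were the lowest of the 34. Exons used by few transcripts count in full in this length, which lowers the value of genes with many transcripts.

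**Figure D3:**
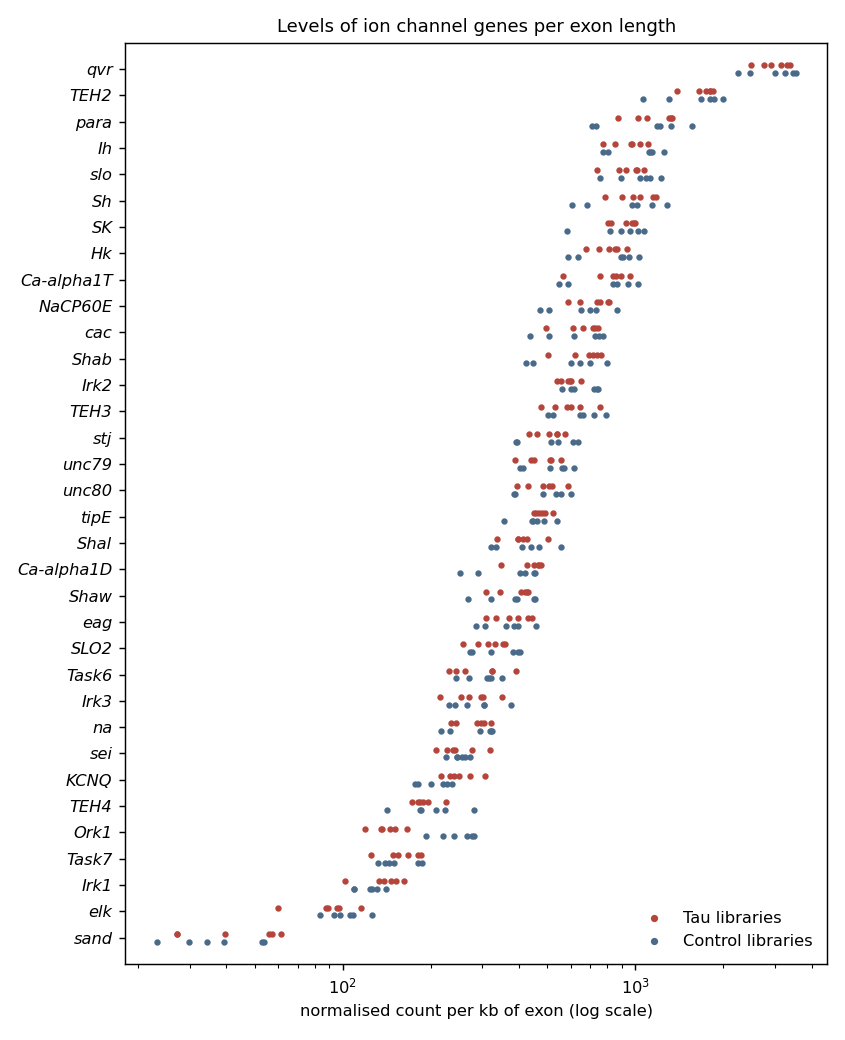
Normalised counts per kb of exon, on a log axis, of the 34 genes in each of the 6 tau and 6 control libraries, ordered by their mean. Levels run from 41.8 per kb for sand to 2994 for qvr, and tau and control points lie apart for Ork1 alone.

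These are long genes with many transcripts. Their median span was 16.3 kb, against 2.81 kb for all genes tested, and 31 of 34 were longer than that median. Sh spans 139 kb and SLO2 94.8 kb. The median exon length was 5.81 kb against 2.12 kb, and the median number of annotated transcripts 5 against 2, with 60 for para and 23 for slo. The table holds 1 value per gene, so a shift between transcripts of a gene was not analysed here. Of the 34 genes, 9 lie on the X (26.5%, against 15.9% of all genes tested), 9 on 2R, 7 on 3R, 6 on 3L and 3 on 2L.

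Within each group the channel genes moved together from library to library. In Control C, 29 of the 34 genes were below their own mean over the 12 libraries, in Control E 30 and in Tau D 30, while in Control F 30 were above it. The mean log2 deviation of the 33 genes other than Ork1 was −0.21 in Tau D, −0.32 in Control C, −0.27 in Control E and 0.23 in Control F. The pan-neuronal genes deviated by −0.22, −0.42, −0.22 and 0.19 in the same libraries. Control C and Control E had the lowest estimated depths, 20.2 and 20.3 M read pairs, but Control D with 20.9 M deviated by 0.09, and the part of depth was not tested. para thus varied 1.53-fold among the tau libraries and 2.19-fold among the controls, and 26 of the 34 genes had a wider ratio of highest to lowest among the controls.

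**Figure D4:**
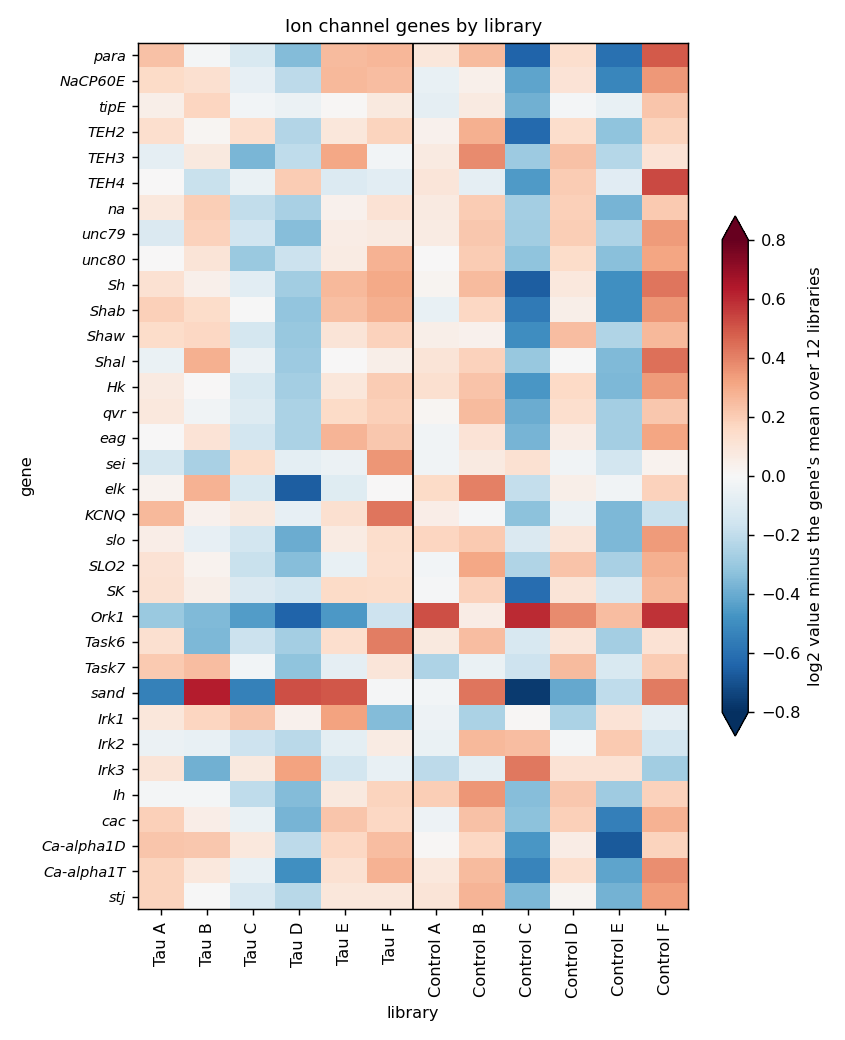
Log2 value of each gene (rows) in each library (columns, tau left of control) minus the mean of that gene over the 12 libraries. Tau D, Control C and Control E are low for most genes and Control F is high, and Ork1 is the row that is low in all 6 tau libraries and high in all 6 controls.

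The spread among libraries of a group can be set beside that of the neuronal genes. The median SD within groups was 0.246 on the log2 scale over the 34 genes, and 0.132 once each library was centred on the pan-neuronal genes. Over all genes tested it was 0.282, and 0.387 after the same centring. For qvr the SD was 0.22 and became 0.05, for Ih 0.25 and 0.08, for SK 0.24 and 0.08, and for para 0.37 and 0.18. The SD was smaller for 29 of the 34 genes and larger for 5: Ork1, sei, Irk1, Irk2 and Irk3. On the other strand, gammaSnap1 covers 10.952% of the exon bases of sei, and Grip71 10.83% of those of Irk3. The values of sei, Irk3 and, as said above, Irk1 are uncertain to that extent. The inward rectifiers as a group deviated by 0.22 in Control C and 0.15 in Control E, where most channel genes were low, and by −0.17 in Control F, where most were high. Even after this centring, the adjusted p of the other 33 genes stayed above 0.05 by limma.

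**Figure D5:**
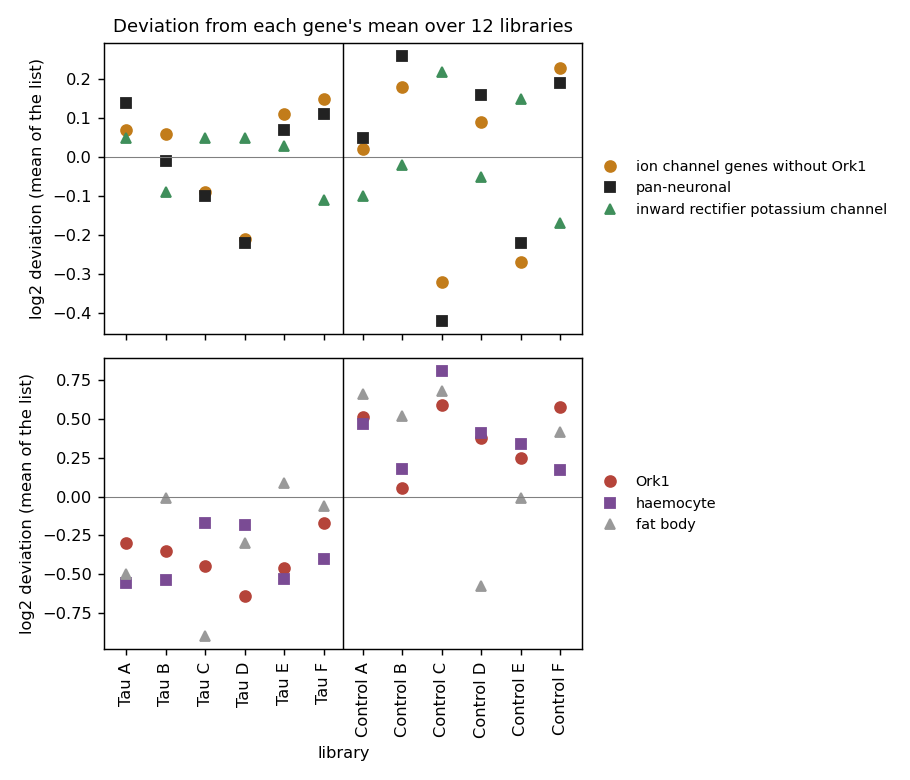
Log2 deviation from the mean over the 12 libraries, tau libraries left of control libraries. Upper panel: the mean of the 33 channel genes other than Ork1, of the pan-neuronal genes and of the 3 inward rectifier genes. Lower panel: Ork1 alone and the means of the haemocyte and fat body markers. The 33 genes lie close to the pan-neuronal genes in each library (−0.21 and −0.22 in Tau D, −0.32 and −0.42 in Control C), and Ork1 lies below 0 in all tau libraries and above 0 in all controls.

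Genes outside the 34 that shape the same currents were read from the same fit. Of 24 further channel subunits and regulators with a row, none was called (1 at an unadjusted p under 0.05 in limma, CG1688), and their median log2 fold change was −0.01. They include the para auxiliary subunit TEH1 (−0.14 ± 0.14 SE), the slo-binding protein Slob (0.29 ± 0.21), the chaperone-like partner Nlf-1 of the sodium leak channel (0.06 ± 0.14), and the RNA editing enzyme Adar, which recodes many channel transcripts (0.07 ± 0.10). Slob varied widely, from 8076 to 17952 normalised counts in tau heads and from 6524 to 16605 in control heads. Of 10 ion pumps and transporters, among them the sodium pump Atpalpha (−0.09 ± 0.12 SE) and the calcium pump PMCA (0.10 ± 0.09), none was called (0 at an unadjusted p under 0.05 in limma).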

How the data were processed

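RNA of 12 libraries, 6 tau and 6 control, was analysed from 1 table. The submitters' processing notes name Trimmomatic 0.36, FastQC, Salmon 0.13.1 and DESeq2 1.24, and the build dm6. Salmon output of 2 lanes was merged for each library, per the file headers. The table holds, as deposited by the authors, a signal for each gene: counts divided by DESeq2 normalisation factors, as its name says. Annotation, summing over transcripts and row filters: not given in the sources used here. In each library, low values piled up at multiples of the value of 1 read pair (0.644 to 1.496), and dividing totals by it gave the estimated depth. In single libraries 49.2% to 81.7% of values under 10 reads came within 0.1 read of a whole number, which is too few to recover whole reads for a count test.

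Members were matched by symbol, 4 of them in another letter case, and positions, exons and transcript numbers came from Ensembl release 115 (BDGP6, dm6 coordinates). The 34 genes and all lists were chosen with earlier results of these data known. Ca-beta of the regulator list is not analysed here. Values were taken as log2(value + 1), which understates changes of low genes, and genes with a mean of at least 10 were tested. limma 3.58.1 in R 4.3.3 (lmFit, eBayes with a variance trend) compared tau with control without covariates. Tests were two-sided, adjusted by Benjamini-Hochberg over all 10845 genes, with calls made under an adjusted p of 0.05, and errors of fold changes (SE) are limma's moderated ones. The fit was checked on simulated data drawn for each gene independently, so shifts shared by many genes of a library were not part of that check. Pools were described as biologically independent. All 34 genes are named, and the value of each library is given in the text for the called gene. Lowest, median and highest values are given for those with the next smallest adjusted p up to 12, and for the highest pore subunit per ion. Alternatives changed pseudocount, filter, scaling and variance model, added a replicate block or yolk protein covariate, or left out libraries. No sequence is shown.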

Additional observations from a re-analysis of the deposited data

How the results depend on the processing

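Of 815 values of single channel genes under 24 alternatives, 814 stayed on their side of the threshold, and KCNQ was called when libraries were rescaled to equal totals (0.39, adjusted p = 0.0388 by limma). With that scaling 2 channel genes were called. In every other alternative 1 was, Ork1. The median log2 fold change of the channel genes ran from −0.084 (array weights) to 0.113 (equal totals), and from −0.055 without Control C to 0.067 without Control F. The count over all genes, 567 (228 higher, 339 lower), moved more. Equal totals gave 525 higher and 261 lower (66.8% higher instead of 40.2%). Centring on the pan-neuronal genes gave 100 (48 higher, 52 lower), no variance trend 369 (212 lower), and array weights 876 (424 higher). Leaving out Control E, Control F and Tau B gave 281 (126 higher, 155 lower), and the yolk protein covariate, which itself differs between the groups, 146 (54 higher, 92 lower). Leaving out single libraries gave 375 (without Control A) to 677 (without Control B), with 147 (without Tau C) to 239 higher and 222 (without Control A) to 447 lower. The causes were not tested. Same-letter libraries did not pair: correlations of their deviations ran from −0.226 to 0.137, and not every library correlated best with its own letter. A replicate block gave 699 called genes, with Ork1 at −0.79 (adjusted p = 0.00118 by limma). Depth limits sand most.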
